A study of Mus musculus with 8 samples.

Results

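Dppa2, Dppa4, Dppa3, Zfp42, Tdgf1 and Lin28a are genes long used as markers of mouse embryonic stem cells (mESCs). A peak of the histone variant H3.3 was assigned to one of them when it touched the gene, the 10 kb before its transcription start site (TSS) or the 200 bp past its end, on the mm9 genome. By this rule 31 of the 75040 peaks in 4 peak lists belonged to the 6 genes. These gene windows spanned 14.1 to 25.7 kb, with a median of 20.1 kb, against a median of 25.6 kb over 22367 protein-coding genes.

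H3.3-HA ChIP-seq was performed on Hira-null cells (Clone104) and wild type (WT) cells (W9.5), and H3.3 carried an HA tag in both, so that each genotype is 1 cell line. Day 15 cells had been differentiated towards cardiomyocytes in hanging drops and made up a mixed culture with beating foci, while day 0 cells were undifferentiated. Chromatin was cut with micrococcal nuclease without crosslinking and precipitated with an anti-HA antibody. The 4 conditions were Hira-null day 15, WT day 15, Hira-null day 0 and WT day 0, with 1 ChIP and 1 input library each, so there were no replicates and no difference between conditions could be tested.

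H3.3 is loaded into chromatin at any stage of the cell cycle, and the chaperone HIRA delivers it to many transcribed genes and regulatory elements. The genes described here are active in undifferentiated mESCs and are switched off as most cell types form. DPPA2 and DPPA4 are DNA-binding partners that keep developmental promoters responsive, DPPA3 (Stella) protects DNA methylation in the early embryo, and ZFP42 (REX1) is a zinc finger protein related to YY1. TDGF1 (Cripto) is a cell surface co-receptor for the ligand Nodal, and LIN28A is an RNA-binding protein that blocks the maturation of let-7 microRNAs.

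The Hira-null day 15 list had 7332 peaks over 7.40 Mb, the WT day 15 list 27272 peaks over 31.4 Mb, the Hira-null day 0 list 17706 peaks over 33.2 Mb and the WT day 0 list 22730 peaks over 28.5 Mb. Each peak came with a score from the peak caller that rises as the p-value of the peak falls, and no list went below a score of 50. Scores depend on read depth, which is unknown here, so each score was read as a percentile of its own list. A missing peak means only that nothing passed the threshold of the caller, and a peak at a gene is not a measure of its expression. Of Pou5f1, Nanog and Sox2, defining genes of mESCs, 0 had a peak in Hira-null day 15 cells, 1 in WT day 15, 1 in Hira-null day 0 and 3 in WT day 0. Of 7 cardiomyocyte genes (Myh6, Myh7, Tnnt2, Actc1, Nkx2-5, Gata4 and Mef2c), 1 had a peak in Hira-null day 15 cells, 2 in WT day 15, 1 in Hira-null day 0 and 0 in WT day 0.

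Most of the H3.3 peaks at the 6 markers were in undifferentiated WT cells. The Hira-null day 15 list had 0 peaks at the 6 genes, against 4 peaks at 1 gene, Lin28a, in WT day 15 cells. The Hira-null day 0 list had 4 peaks at 3 genes (Dppa3, Zfp42 and Tdgf1), against 23 peaks at 5 genes in WT day 0 cells, where Dppa4 was the exception. The share of all protein-coding genes with a peak was 13.3% for Hira-null day 15, 37.1% for WT day 15, 18.9% for Hira-null day 0 and 33.6% for WT day 0. At day 0 the markers therefore stood above the background in WT cells (5 of 6) and also in Hira-null cells (3 of 6). At day 15 they stood below it in WT (1 of 6) and Hira-null cells (0 of 6). The 6 genes are too few to read the day 15 counts, or the 3 of 6 in Hira-null day 0 cells, as a departure from the background. All of this describes 6 genes chosen for their role in mESCs and with earlier results of these data known. Their windows were shorter at the median than those of all genes. Restricted to scores of at least 100, the counts were 0 peaks in Hira-null day 15, 0 in WT day 15, 4 in Hira-null day 0 and 13 in WT day 0 cells, and the WT day 0 peaks numbered 3 at Dppa2, 1 at Dppa3, 3 at Zfp42, 5 at Tdgf1 and 1 at Lin28a. The median number of peaks per marker was 0 for Hira-null day 15, 0 for WT day 15, 0.50 for Hira-null day 0 and 3.5 for WT day 0, and the median over all protein-coding genes was 0 in each list.

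**Figure D1:**
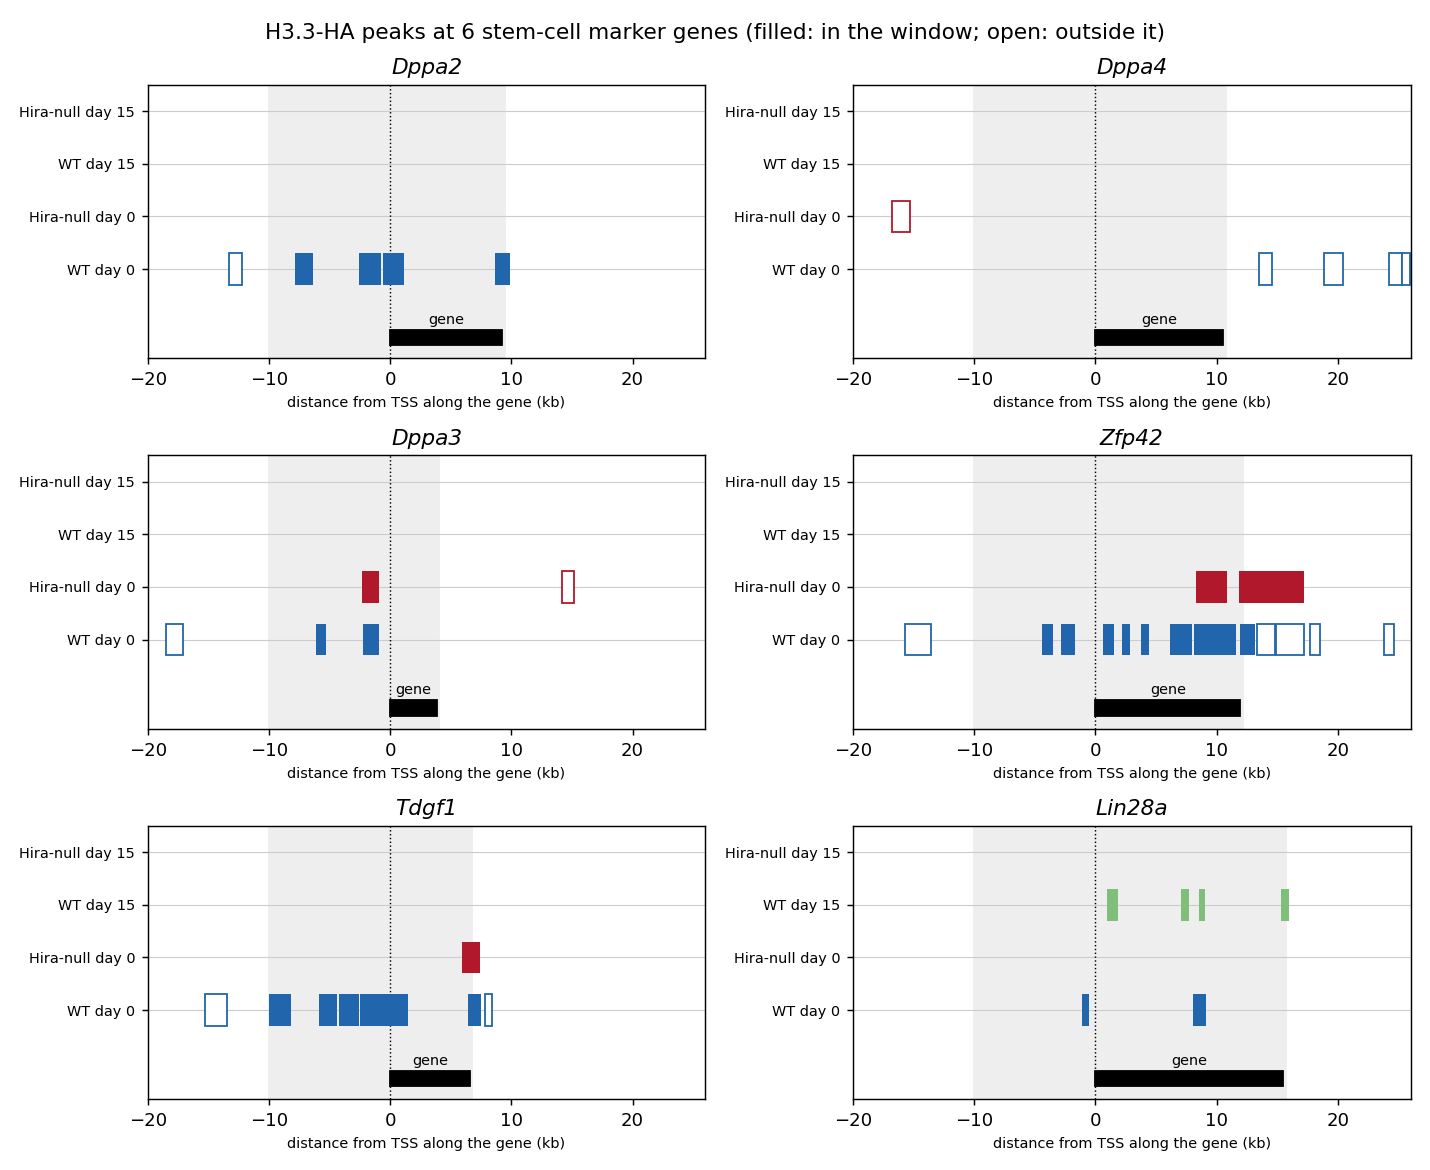
Position of H3.3-HA peaks at the 6 genes, in kb from the TSS along the direction of transcription, with 1 row per condition. Filled boxes are peaks that touch the window (grey) and open boxes are peaks outside it. The row for Hira-null day 15 is empty at all 6 genes, the row for WT day 15 is filled at Lin28a only, and the row for WT day 0 holds 23 of the 31 filled boxes.

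The peaks covered 0 kb of the windows in Hira-null day 15 cells, 2.63 kb in WT day 15, 5.07 kb in Hira-null day 0 and 28.5 kb in WT day 0. The WT day 0 peaks took up 55.3% of the Tdgf1 window, 43.4% of Zfp42, 29.6% of Dppa2, 15.2% of Dppa3, 6.59% of Lin28a and 0% of Dppa4. Genes with a WT day 0 peak had a median of 4.04% of their window covered. Of the 7520 genes that had any peak in WT day 0 cells, ranked by covered share, Tdgf1 stood at 17, Zfp42 at 55, Dppa2 at 193, Dppa3 at 795 and Lin28a at 2472, so Tdgf1, Zfp42 and Dppa2 were among the most densely covered genes of the list. In Hira-null day 0 cells the covered share was 12.8% at Zfp42, 9.90% at Dppa3 and 5.00% at Tdgf1, against a median of 3.58% over genes with a peak.

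**Figure D2:**
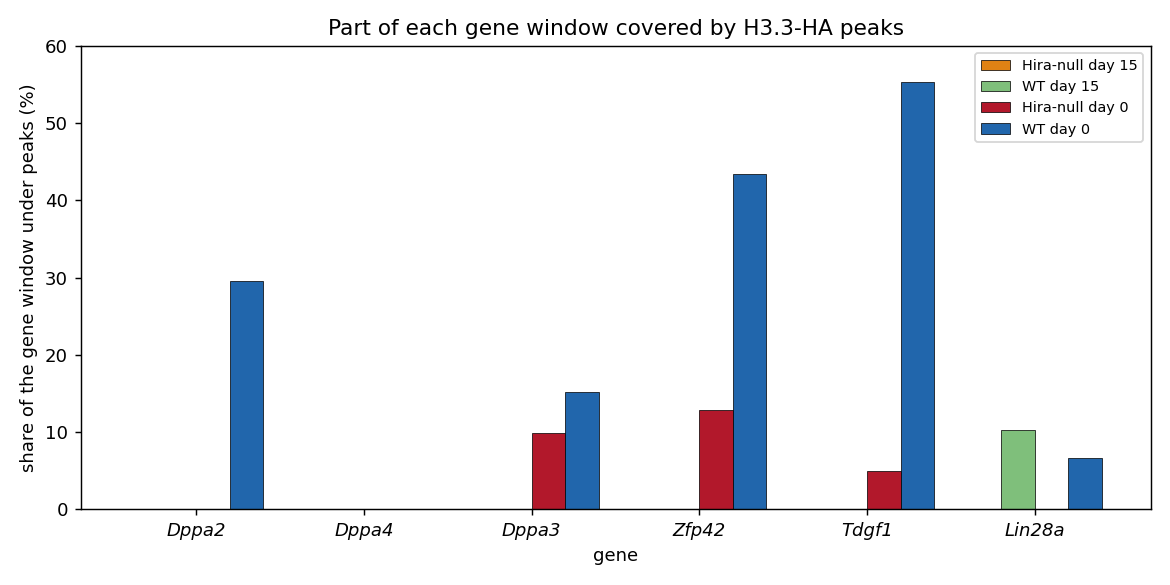
Share of each gene window under H3.3-HA peaks, in percent, with 1 bar per condition. Each bar is 1 library and has no error bar. The tallest bars are WT day 0 at Tdgf1 (55.3%), Zfp42 (43.4%) and Dppa2 (29.6%), the tallest Hira-null bar is Zfp42 at day 0 (12.8%), and Dppa4 has no bar.

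Whether a WT peak had a Hira-null counterpart was asked by overlap of at least 1 bp on the same day. At day 15, 0 of the 4 WT peaks (all at Lin28a) met a Hira-null peak, so that 100% had none (exact 95% binomial interval 39.8 to 100), against 91.9% of all WT day 15 peaks. At day 0, 19 of the 23 WT peaks (82.6%, interval 61.2 to 95) had no Hira-null peak, against 72.7% of all WT day 0 peaks, a share that lies within the interval of the markers. These intervals cover counting error only and treat each peak as an independent draw from 1 library. Close neighbours at the same gene are not independent. With peaks less than 1 kb apart merged, 10 of 13 WT day 0 peaks had no Hira-null peak. Such unmatched WT peaks were found at 1 of the 6 genes at day 15, where 35.4% of all protein-coding genes had one, and at 5 of 6 at day 0, where 29.5% had one. At scores of at least 100 in both lists, 0 such peaks were left at day 15 and 9 at day 0. In the other direction, 4 of the 4 Hira-null day 0 peaks at the markers overlapped a WT peak, against 32.8% of the whole Hira-null day 0 list, so that 0 Hira-null peaks in the windows lay where WT cells had none. These are few peaks, and 2 of them were at Zfp42. The Hira-null day 0 peaks outside the windows but within 30 kb, near Dppa4, Dppa3 and Tdgf1, overlapped no WT day 0 peak. Among them was chr6:122590616-122591637 (score 149), which began 10.1 kb past the Dppa3 window.

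Dppa2 and Dppa4 are neighbours on chromosome 16 and read in the same direction, yet H3.3 peaks were found at Dppa2 alone. Dppa2 (ENSMUSG00000072419.4, chr16:48310590-48319836, plus strand, 7 exons) had 0 peaks in Hira-null day 15, WT day 15 and Hira-null day 0 cells and 6 in WT day 0 cells. Dppa4 (ENSMUSG00000058550.7, chr16:48283848-48294405, plus strand) had 0 peaks in all 4 lists, which it shared with 10175 other protein-coding genes. The peak nearest to Dppa4 in WT day 0 cells, chr16:48297338-48298400 with a score of 100, began 2.73 kb past its window and ended 2.19 kb before that of Dppa2. In Hira-null day 0 cells the nearest was chr16:48267009-48268544, with a score of 134, 5.30 kb upstream of the Dppa4 window.

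At Dppa2 the WT day 0 peaks formed a run around the TSS. The 4 peaks chr16:48308043-48309166, chr16:48309182-48309862, chr16:48310017-48310820 and chr16:48310832-48311692 were separated by 15, 154 and 11 bp and together reached 3650 bp, starting at -2.55 kb relative to the TSS. The third of these lay over the TSS, exon 1 and intron 1, and the fourth lay over intron 1 and exon 2. Their scores were 117, 65.4, 128 and 93.4, which put them at the 74.4, 30.8, 78.9 and 61.3 percentiles of the list. A separate peak at the gene end, chr16:48319202-48320473, covered part of exon 7 and the 3' UTR with a score of 99.2 (percentile 65.2). The strongest Dppa2 peak was the farthest upstream, chr16:48302774-48304226, with its midpoint at -7.09 kb and a score of 152 (percentile 85.3).

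The middle of that distal peak is printed here because it is the strongest H3.3 site of the gene and had no counterpart in Hira-null cells. It holds none of the 4 motifs searched, which were the octamer of POU factors (ATGCAAAT), the site of ESRRB (TCAAGGTCA), the site of KLF factors (GGGTGTG) and that of the YY1 family (AAGATGGC), on either strand.
Dppa2 distal upstream, chr16:48303350-48303649, plus strand: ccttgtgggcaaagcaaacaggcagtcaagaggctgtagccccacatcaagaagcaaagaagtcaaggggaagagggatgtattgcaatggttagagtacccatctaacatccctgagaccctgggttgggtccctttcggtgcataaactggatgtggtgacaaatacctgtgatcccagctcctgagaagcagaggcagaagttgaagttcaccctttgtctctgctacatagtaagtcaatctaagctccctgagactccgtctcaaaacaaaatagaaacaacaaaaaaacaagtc

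Dppa3 kept a peak in Hira-null mESCs at the same place as in WT. Dppa3 (ENSMUSG00000046323.2, chr6:122576428-122580290, plus strand) had 0 peaks in Hira-null day 15, 0 in WT day 15, 1 in Hira-null day 0 and 2 in WT day 0 cells, and each of them lay upstream of the gene. The Hira-null day 0 peak, chr6:122574107-122575498, had a width of 1392 bp and a score of 258 (percentile 78.8). The WT day 0 peak there, chr6:122574202-122575527, had a width of 1326 bp and a score of 169 (percentile 88.5). The pair shared 1297 bp, which is 93.2% of the Hira-null peak and 97.8% of the WT peak, and the edges nearest to the TSS were at -0.930 kb in Hira-null and -0.901 kb in WT cells. The other WT day 0 peak, chr6:122570307-122571118, was weak, with a score of 51.7 (percentile 4.19), and had no Hira-null counterpart.

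The shared upstream region of Dppa3 is printed because it lay under a peak in both genotypes, and the stretch was placed to hold the most motif matches. The capitals mark ATTTGCAT, the POU octamer read on the opposite strand, which occurred at the very start of the stretch and again a short way in.
Dppa3 upstream, chr6:122574655-122574954, plus strand: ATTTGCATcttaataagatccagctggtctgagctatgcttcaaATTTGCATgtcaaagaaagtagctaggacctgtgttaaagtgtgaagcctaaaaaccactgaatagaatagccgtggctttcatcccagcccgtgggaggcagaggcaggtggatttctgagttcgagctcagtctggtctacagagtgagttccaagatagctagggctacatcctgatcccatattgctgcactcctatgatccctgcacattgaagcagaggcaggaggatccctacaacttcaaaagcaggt

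At the full threshold Zfp42 had the most separate peaks of the group. Zfp42 (ENSMUSG00000051176.5, chr8:44380422-44392363, minus strand, 4 exons) had 0 peaks in Hira-null day 15, 0 in WT day 15, 2 in Hira-null day 0 and 8 in WT day 0 cells, a set of counts found at 0 other protein-coding genes. By number of WT day 0 peaks it ranked 155 of 7520 genes. With peaks less than 1 kb apart merged, Zfp42, Dppa2 and Tdgf1 had 3 WT day 0 peaks each, and at scores of at least 100 Zfp42 had 3 against 5 at Tdgf1. The 2 Hira-null peaks lay in the 3' part of the gene and across its end, and the WT peaks ran through the gene and upstream as far as -4.41 kb from the TSS.

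The Hira-null day 0 peak at the gene end, chr8:44375175-44380501, was 5327 bp wide, at the 99.0 percentile of widths in its list, with a score of 411 (percentile 91.5). In WT day 0 cells it met 3 separate peaks, which covered 5112 bp or 96.0% of it. Of these, chr8:44379204-44380405 touched the Zfp42 window (score 176, percentile 89.5), and chr8:44375124-44377511 (score 378) and chr8:44377515-44379087 (score 148) lay past it. The same stretch of chromatin past the gene was thus 1 wide peak in Hira-null cells and several narrower ones in WT cells. Peaks were wider in the Hira-null day 0 list as a whole, with a median of 1514 bp against 1045 bp in the WT day 0 list. Most of the wide Hira-null peak lay outside the window, and with the peak midpoint required inside it Zfp42 had 1 Hira-null day 0 peak.

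The other Hira-null day 0 peak, chr8:44381530-44384094, had a width of 2565 bp and a score of 222 (percentile 73.8), over intron 3 and the start of exon 4. It lay 100% within the strongest WT day 0 peak of the whole group, chr8:44380769-44384191, with a width of 3423 bp and a score of 356 (percentile 98.4). The remaining 6 WT day 0 peaks overlapped no Hira-null peak. They were chr8:44384386-44386181 over exon 3 (score 98.6), chr8:44387974-44388585 in intron 2 (score 72.1), chr8:44389504-44390134 over exon 2 (score 73.4), chr8:44390841-44391712 in intron 1 (score 81.0), and chr8:44394040-44395206 (score 85.7) and chr8:44395854-44396777 (score 129) upstream of the TSS. Their percentiles ran from 40.6 to 79.2, below those of the peaks shared with Hira-null cells, 89.5 and 98.4, and the TSS of Zfp42 itself was under no peak in any list.

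The middle of the part shared by these 2 peaks, in intron 3, is printed because the WT peak had the highest score of the group and the Hira-null peak lay within it. That score belongs to the whole WT peak. The capitals mark AAGATGGC, the motif of the YY1 family to which ZFP42 is related.
Zfp42 intron 3, chr8:44382662-44382961, minus strand: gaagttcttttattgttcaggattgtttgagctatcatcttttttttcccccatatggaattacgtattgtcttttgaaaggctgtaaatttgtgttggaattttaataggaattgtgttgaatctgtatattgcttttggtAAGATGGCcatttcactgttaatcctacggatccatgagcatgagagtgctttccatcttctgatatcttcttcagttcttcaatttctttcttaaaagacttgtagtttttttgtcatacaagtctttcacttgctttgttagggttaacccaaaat

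Chromosome 8 was dense in WT peaks, with 12.6 WT day 0 peaks per Mb, 1.55 times the density on the autosomes other than 8 and 11, while the ratio was 0.918 to 1.23 on the chromosomes of the other 5 genes. At day 15 the ratio for chromosome 8 was 3.19 in WT cells, and Zfp42 had 0 peaks there. In Hira-null cells it was 0.736 at day 15 and 0.854 at day 0. The part of this density in the Zfp42 counts was not tested.

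Tdgf1 had the widest H3.3 peak over a TSS. Tdgf1 (ENSMUSG00000032494.8, chr9:110842114-110848662, minus strand, 6 exons) had 0 peaks in Hira-null day 15, 0 in WT day 15, 1 in Hira-null day 0 and 5 in WT day 0 cells. The WT day 0 peak over the TSS, exon 1 and intron 1, chr9:110847192-110851187, was 3996 bp wide (percentile 99.0 of widths) with a score of 296 (percentile 97.2). It was followed upstream, after gaps of 16 and 167 bp, by chr9:110851204-110852921 (score 140) and chr9:110853089-110854558 (score 135). This run reached 7367 bp, from -5.90 kb to 1.47 kb relative to the TSS, and none of it was under a Hira-null peak. A further WT day 0 peak, chr9:110856881-110858622 with a score of 150, sat between -9.96 and -8.22 kb.

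The only Hira-null peak of Tdgf1 was at the other end of the gene. In Hira-null day 0 cells chr9:110841251-110842750, over exon 6, the 3' UTR and the sequence past the gene, had a width of 1500 bp and a score of 178 (percentile 65.6). In WT day 0 cells chr9:110841195-110842249 had a width of 1055 bp and a score of 138 (percentile 82.0). They shared 999 bp, 66.6% of the Hira-null peak and 94.7% of the WT peak. Hira-null day 0 peaks covered 0% of the 10 kb upstream of Tdgf1 and 9.73% of the gene, whereas WT day 0 peaks covered 74.5% upstream and 24.5% of the gene. The WT day 0 peak over the TSS and the peaks upstream of it, 4 in all, also fell in the window of the neighbouring gene Lrrc2. Lrrc2 had further Hira-null day 0 peaks 14.3 and 17.8 kb outside the Tdgf1 window, and to which gene the peaks belong was not tested.

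A stretch of the wide TSS peak and one of the peak at the gene end are printed because the first was found in WT cells alone and the other in both genotypes. In the upstream stretch the capitals mark the POU octamer ATGCAAAT and CACACCC, the KLF site on the opposite strand, and in the stretch past the gene end they mark TGACCTTGA, the ESRRB site on the opposite strand.
Tdgf1 upstream, chr9:110850204-110850503, minus strand: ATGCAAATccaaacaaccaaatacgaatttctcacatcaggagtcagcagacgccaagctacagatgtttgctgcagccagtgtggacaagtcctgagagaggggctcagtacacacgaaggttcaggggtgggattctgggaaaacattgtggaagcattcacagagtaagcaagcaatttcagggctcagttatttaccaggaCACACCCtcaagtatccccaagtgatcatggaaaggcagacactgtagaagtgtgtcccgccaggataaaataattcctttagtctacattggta
Tdgf1 past the gene end, chr9:110841600-110841899, minus strand: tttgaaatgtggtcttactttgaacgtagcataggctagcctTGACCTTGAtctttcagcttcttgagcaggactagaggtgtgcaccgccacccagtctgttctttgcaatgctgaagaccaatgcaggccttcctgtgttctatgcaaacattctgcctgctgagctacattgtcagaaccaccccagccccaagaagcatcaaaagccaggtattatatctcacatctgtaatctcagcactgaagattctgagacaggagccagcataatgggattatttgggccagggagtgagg

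Lin28a was the only marker with H3.3 peaks after differentiation. Lin28a (ENSMUSG00000050966.2, chr4:133559245-133574756, minus strand, 4 exons) had 0 peaks in Hira-null day 15, 4 in WT day 15, 0 in Hira-null day 0 and 2 in WT day 0 cells, so that Hira-null cells had no peak on either day. The same 4 counts were found at 68 other protein-coding genes. By covered share it ranked 1968 of 8308 genes in WT day 15 cells, with 10.2% of its window under peaks against a median of 4.65% over genes with a peak.

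The WT day 15 peaks lay inside the gene and at its end, and were mostly low in their list. They were chr4:133572902-133573807 in intron 2 (score 90.5, percentile 53.2), chr4:133566995-133567734 in intron 2 (score 55.2, percentile 10.1), chr4:133565677-133566234 in intron 2 (score 50.5, percentile 1.26) and chr4:133558761-133559466 over exon 4 and the 3' UTR (score 75.3, percentile 37.5). None had a score of 100, so that a minimum of 100 left 0 peaks at Lin28a in WT day 15 cells. The WT day 0 peaks were chr4:133565616-133566741 in intron 2 (score 121, percentile 76.0) and chr4:133575293-133575861 upstream of the TSS (score 52.7, percentile 6.52).

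One place in intron 2 carried H3.3 on both days in WT cells. The weakest WT day 15 peak lay 100% within the intronic WT day 0 peak and covered 49.6% of it. The peaks at this place and the day 15 peak at the gene end also fell in the window of the adjacent gene Dhdds, and which gene they belong to was not tested. The shared intronic stretch is printed because it was the only place of the 6 genes with a peak at day 15 and at day 0. It holds none of the 4 motifs.
Lin28a intron 2, chr4:133565806-133566105, minus strand: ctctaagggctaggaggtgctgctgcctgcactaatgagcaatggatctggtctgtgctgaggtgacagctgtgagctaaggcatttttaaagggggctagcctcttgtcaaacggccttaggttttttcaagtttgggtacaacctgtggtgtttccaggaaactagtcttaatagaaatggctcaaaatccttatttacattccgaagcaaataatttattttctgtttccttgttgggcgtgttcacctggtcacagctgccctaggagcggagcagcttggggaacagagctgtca

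Between days, 1 place at Lin28a was shared in WT cells. Of the WT day 15 peaks 1 of 4 overlapped a WT day 0 peak, against 22.0% of the whole WT day 15 list, a share near the background. Of the WT day 0 peaks 1 of 23 overlapped a WT day 15 peak, against 25.7% of the whole WT day 0 list. Dppa2, Dppa3, Zfp42 and Tdgf1 had 0 peaks at day 15 in either genotype.

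The peaks were also sorted by where they lay on the gene. The place at intron 3 of Zfp42 shared by both genotypes at day 0 counts as inside the gene in Hira-null cells. In WT cells it counts as gene end, because the WT peak reaches the 3' UTR. In WT day 15 cells 3 were inside Lin28a and 1 was at its end. In Hira-null day 0 cells 1 peak was upstream (Dppa3), 0 lay over a TSS, 1 was inside a gene (Zfp42) and 2 were at a gene end (Zfp42 and Tdgf1). In WT day 0 cells 11 of the 23 peaks were upstream of a TSS, 2 lay over a TSS (Dppa2 and Tdgf1), 6 were inside a gene and 4 were at a gene end or 3' UTR. Within WT day 0 cells, Tdgf1 and Dppa2 were covered more upstream than along the gene (74.5% against 24.5%, and 38.3% against 18.7%), Zfp42 more along the gene (20.9% against 61.4%), and Dppa3 upstream alone (21.4% against 0%).

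**Figure D3:**
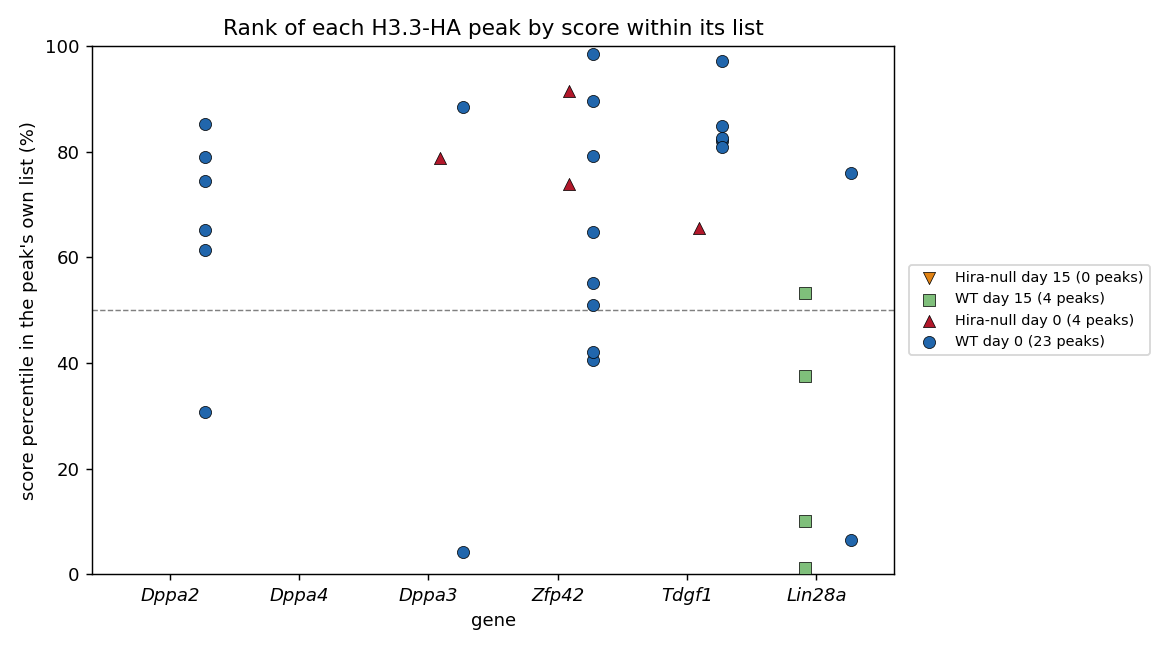
Score of each of the 31 H3.3-HA peaks as a percentile of all peaks in its own list, by gene, with 1 symbol per peak and the dashed line at the list median. Hira-null day 0 peaks sit between 65.6 and 91.5, WT day 15 peaks, all at Lin28a, between 1.26 and 53.2, and WT day 0 peaks between 4.19 and 98.4.

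By score, the markers' peaks had a median percentile of 23.8 in WT day 15 cells, 76.3 in Hira-null day 0 cells and 76.0 in WT day 0 cells. The 4 WT day 0 peaks with a Hira-null peak had percentiles of 82.0 to 98.4 with a median of 89.0, and the 19 without had 4.19 to 97.2 with a median of 65.2. The WT day 0 peaks that were also found in Hira-null cells were thus among the stronger ones, but the ranges overlapped, and the Tdgf1 peak over the TSS, which had no Hira-null peak, stood at 97.2.

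The peaks differed from their lists in base composition to different degrees, and most in the small sets. Median GC content was 49.8% for the markers' peaks in WT day 15 cells (list median 42.6%), 42.5% in Hira-null day 0 (list 44.7%) and 44.2% in WT day 0 (list 45%). The median ratio of observed to expected CpG was 0.277 in WT day 15 (list 0.194), 0.155 in Hira-null day 0 (list 0.292) and 0.248 in WT day 0 (list 0.216). The median of the 4 Hira-null day 0 peaks was thus below that of their list, but the Zfp42 peak chr8:44381530-44384094, at 0.302, was above it. The central 300 bases of each peak were searched for the 4 motifs. Of the 4 WT day 15 peaks 0 held any of them, where 1.82% of that list held the POU octamer, 0.781% the ESRRB site, 5.16% the KLF site and 1.47% the YY1 family motif. Of the 4 Hira-null day 0 peaks the octamer matched in 1 and the YY1 family motif in 1, where 5.64% and 4.11% of the list had them, and the ESRRB and KLF sites matched in 0, where 1.16% and 6.93% had them. Of the 23 WT day 0 peaks the octamer matched in 0 (list 4.52%), the ESRRB site in 1 (list 1.52%), the KLF site in 2 (list 8.58%) and the YY1 family motif in 0 (list 1.83%). With so few matches the markers' peaks could not be set apart from their lists. Over the whole length of the peaks, the octamer was found in 4 of the 23 WT day 0 and 3 of the 4 Hira-null day 0 peaks. The KLF site was found in 6 and 2, the YY1 family motif in 2 and 1, and the ESRRB site in 1 and 1. The matches in the centres of the Dppa3 and Zfp42 Hira-null peaks were of motifs also held by the overlapping WT peaks, away from their centres. The share of 31-base words that occur once in the genome was 96.5 to 100% in the WT day 15 peaks, 84.8 to 98.1% in Hira-null day 0 and 70.3 to 100% in WT day 0, lowest in the weak upstream peak of Dppa3. The part of repeated sequence in the counts was not tested.

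Other genes with roles beside the 6 markers are given by 3 lists, with counts that were not scaled for gene length. Over all protein-coding genes the shares with a peak were 13.3% in Hira-null day 15, 37.1% in WT day 15, 18.9% in Hira-null day 0 and 33.6% in WT day 0 cells. In a list of 12 other genes, most of them used as markers of mESCs, 1 gene had a peak in Hira-null day 15 cells, 2 in WT day 15, 3 in Hira-null day 0 and 9 in WT day 0. Zfp57, a zinc finger protein that protects imprints, had 0 peaks in Hira-null day 15, 0 in WT day 15, 3 in Hira-null day 0 and 8 in WT day 0 cells, and L1td1, an RNA-binding protein, had 0 in Hira-null day 15, 1 in WT day 15, 1 in Hira-null day 0 and 7 in WT day 0 cells. Dppa5a, a small RNA-binding protein of the germ line and mESCs, had 5 peaks in WT day 0 cells and Fbxo15, an F-box protein, had 4, with 0 in the other lists. Trim28, the corepressor of KRAB zinc finger proteins, was the only gene of this list with a peak in all 4 conditions, with 1 peak in Hira-null day 15, 2 in WT day 15, 1 in Hira-null day 0 and 4 in WT day 0 cells. Utf1 and the growth factor gene Fgf4 had 2 WT day 0 peaks each, the ligand gene Gdf3 and the AKT coactivator gene Tcl1 had 1 each, and Nr0b1, Eras and Tcfap2c had 0 in every list. In all, the list had 1 peak in Hira-null day 15 (at Trim28), 3 in WT day 15 (2 of them at Trim28), 5 in Hira-null day 0 and 34 in WT day 0 cells, so here too most peaks were in WT day 0 cells.

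In the LIN28 and let-7 pathway as many genes had a WT peak at day 15 as at day 0. Of its 8 genes, 3 had a peak in Hira-null day 15 cells, 6 in WT day 15, 3 in Hira-null day 0 and 6 in WT day 0. Lin28b, the paralogue of Lin28a, had 3 WT day 15 and 3 WT day 0 peaks and 0 in Hira-null cells. Trim71, a let-7 target that encodes a ubiquitin ligase, had 1 peak in Hira-null day 15, 5 in WT day 15, 0 in Hira-null day 0 and 11 in WT day 0 cells. Of the enzymes that add uridine to let-7 precursors, Zcchc11 had 2 Hira-null day 15, 27 WT day 15 and 1 WT day 0 peaks and Zcchc6 had 4 WT day 15 peaks, with 0 in the lists not named. Zcchc11 held 27 of the 46 WT day 15 peaks of the list. Dis3l2, the nuclease that degrades those precursors, had 1 Hira-null day 15 and 3 WT day 0 peaks. Of the genes of microRNA processing and action, Dicer1 had 1 Hira-null day 0 and 1 WT day 0 peak and Ago2 had 2 WT day 15 and 1 Hira-null day 0 peak. Hmga2, a chromatin protein gene and let-7 target, had 5 WT day 15, 1 Hira-null day 0 and 2 WT day 0 peaks.

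The Nodal pathway, in which TDGF1 acts, had WT peaks on both days. Of its 13 genes, 3 had a peak in Hira-null day 15 cells, 7 in WT day 15, 3 in Hira-null day 0 and 9 in WT day 0. Where a list is not named for a gene of this pathway, it had 0 peaks there. The ligand gene Nodal had 1 Hira-null day 15, 1 WT day 15 and 1 WT day 0 peak, and Gdf1, whose product pairs with Nodal, had 1 WT day 15 peak. Among the receptors, Acvr1b had 4 WT day 15 peaks and 1 WT day 0 peak, Acvr2a had 3 WT day 15 peaks and 1 WT day 0 peak, and Acvr1c had 2 Hira-null day 0 peaks and 1 WT day 0 peak. Acvr2b and the related co-receptor gene Cfc1 had 0 peaks in every list. Among the genes that carry the signal to the nucleus, Smad2 had 1 Hira-null day 15 and 9 WT day 15 peaks, Smad3 had 4 WT day 15 peaks and 1 WT day 0 peak, and Smad4 had 2 WT day 15, 1 Hira-null day 0 and 2 WT day 0 peaks. Foxh1, the DNA-binding partner of the SMADs, had 1 WT day 0 peak. Of the inhibitors, Lefty1 had 1 Hira-null day 0 and 3 WT day 0 peaks, and Lefty2 had 1 Hira-null day 15 and 1 WT day 0 peak.

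**Figure D4:**
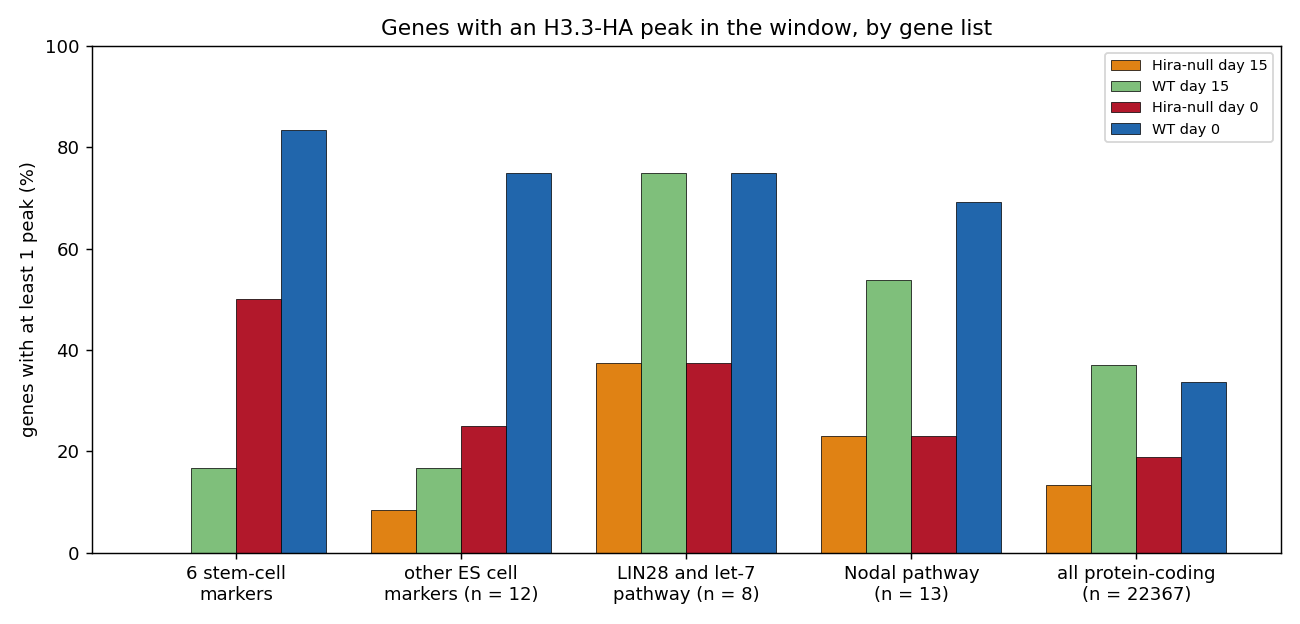
Percent of genes whose window was touched by 1 or more H3.3-HA peaks, for the 6 markers, 3 other gene lists and all 22367 protein-coding genes, with 1 bar per condition. The WT day 0 bar is the highest of the 4 for the 6 markers (5 of 6 genes), the other mESC markers (9 of 12) and the Nodal pathway (9 of 13), and is level with the WT day 15 bar for the let-7 list (6 of 8 each). Over all protein-coding genes the WT day 15 bar is the highest (37.1%).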

How the data were processed

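H3.3-HA ChIP-seq peak lists of the 4 conditions were used, 1 per condition. The authors aligned paired-end reads to mm9 with Bowtie, removed duplicates with Samtools and called peaks with MACS 1.4.2 at its default threshold, and deposited the position and score of every peak. The deposited score is that of the peak caller and was used by rank within a list. The 4 input libraries have no file used here, and read depth per library is unknown. Starts were changed to count from 1. Genes came from GENCODE M1 and sequence from the matching assembly, NCBIM37. The study's own rule for WT peaks without a Hira-null peak, an overlap of at least 1 bp, was applied. Counts were made with Python 3.11.15, numpy 2.4.6 and scipy 1.17.1, figures with matplotlib 3.10.9, and the overlap code was tested on simulated data and against bedtools 2.31.1, with 0 of 22730 WT day 0 peaks counted differently. Intervals are exact (Clopper-Pearson, 95%).

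The named items were all 6 genes with every peak in their windows, and the genes of the 3 pathway and marker lists. The genes and lists were chosen with earlier results of these data known. The windows printed as sequence were the 300 bases with the most motif matches outside UTRs and coding sequence, or else nearest the middle of the region. Each is written 5′ to 3′ on the strand of its gene. Alternatives were a score of at least 100, lists held to 7332 peaks each, the gene body without its upstream flank, 5 kb upstream, the peak midpoint inside the window, leaving out Zfp42, a WT peak covered to at least 50%, Hira-null peaks widened by 1 kb and, chosen after seeing the data, merging of peaks less than 1 kb apart.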

Additional observations from a re-analysis of the deposited data

How the results depend on the processing

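The Hira-null day 15 count stayed at 0 peaks under each of the 7 alternatives run for it. These could only remove or join peaks, so a count of 0 could not have changed. With a score of at least 100, WT day 15 had 0 peaks at the markers (0 without a Hira-null peak) and WT day 0 had 13 (9 without), and with the lists held to 7332 peaks each the counts were again 0, 0, 13 and 9. Within the gene body, WT day 0 had 11 peaks, of which 9 had no Hira-null peak. With Hira-null peaks widened by 1 kb, 18 WT day 0 peaks had no Hira-null peak, against 19 without widening. Without Zfp42, Hira-null day 0 had 2 peaks and WT day 0 had 15. With peaks less than 1 kb apart merged, an alternative chosen after seeing the data, WT day 0 had 13, of which 10 had no Hira-null peak. Of 46 alternatives for the 6 totals, 32 stayed within 1.5-fold and 14 were lower, and the 32 include the 7 of the Hira-null day 15 total. For single genes 143 of 164 stayed within 1.5-fold and 21 were lower. Many of the 143 belong to counts of 0, which no alternative could change, so they say nothing about stability. No paired analysis was possible because each condition had 1 ChIP library, and for the same reason no replicate could be left out. Read depth, which sets how many peaks pass the threshold, is unknown for each list, and its part in the differences between lists was not tested.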
